A study of Mus musculus with 8 samples.

Results

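Iron and heme handling was followed through the mRNA of 9 genes in bone marrow derived macrophages (BMDMs) of mice with and without MKL1, a cofactor of serum response factor that links actin dynamics to transcription. The 9 genes were the rows of both raw count tables with the symbols Fth1, Ftl1, Slc40a1, Tfrc, Slc11a1, Slc11a2, Hmox1, Spic and Lcn2, out of 53735 gene rows in all. Each of the 9 passed the filter on low counts, which left 14418 genes to test, although Lcn2 held no more than 3 counts in any KO library of experiment 1.

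WT mice were Mkl1+/+, Apoe-/- and KO mice were Mkl1-/-, Apoe-/-, the KO being global, so that every library came from animals without apolipoprotein E. All donors were males of 6 months that received angiotensin II (Ang II) at 1.44 mg/kg/day from an osmotic minipump for 7 days (the labels also give 1 mg/kg/min, which conflicts with this dose), and their marrow cells were then grown into macrophages over 7 days of culture, so no library without Ang II and none with intact Apoe was compared. The 8 libraries fell into 2 experiments, which the submitters name as batches to be compared separately. Experiment 1 held WT 1, WT 2, KO 5 and KO 6, and experiment 2 held WT 3, WT 4, KO 7 and KO 8. The labels number the samples but do not say whether each came from a mouse of its own, so the p-values measure the spread between 2 libraries a genotype in each experiment. These were bulk cultures, in which fewer cells of a type and less RNA per cell cannot be told apart.

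Library totals ran from 33977799 to 41584540 counts. The gene with the most counts was Lyz2 in WT 1, WT 2 and KO 7, and mt-Rnr2 in WT 3 and KO 8. In WT 4 it was Rn7sk, and in KO 5 and KO 6 it was Malat1. These held between 1.31% and 2.34% of a library's counts. Mkl1 mRNA itself stood at 25.7, 27.1, 26.8 and 29.6 CPM (read counts relative to the TMM-scaled library size) in WT 1 to WT 4, at 19.5 and 20.9 CPM in KO 5 and KO 6, and at 14.6 and 10.4 CPM in KO 7 and KO 8. All 4 KO libraries lay below all 4 WT libraries (difference of mean log2 CPM of -0.78, exact two-sided permutation p = 0.0286, the smallest that 70 arrangements allow, and p = 0.0556, the smallest that 36 allow, when labels were exchanged within experiments only). Mkl1 had a log2 fold change of -0.39 in experiment 1 (edgeR, adjusted p = 0.00381) and -1.17 in experiment 2 (adjusted p = 0.0218). These 2 effects differed by -0.79 in the interaction test (adjusted p = 0.0238). Fitted over both experiments, the effect was -0.78 (adjusted p = 0.0574) and missed an adjusted p of 0.05. Reads over the part of the gene that the allele keeps also enter the Mkl1 counts, and the deleted exons are not named in the labels. Macrophage markers were abundant in every library, with a summed level of 16070 to 36540 CPM for 10 genes led by Lyz2. In KO, 4 of the 10 were lower and 5 higher in experiment 1 at an adjusted p under 0.05 in edgeR, and 2 were lower and 2 higher in experiment 2. Called in opposite directions, and named after their values were seen, were 3 of them, with log2 fold changes in experiments 1 and 2 of -2.11 and 0.91 for Adgre1, -1.03 and 1.34 for Itgam, and 0.82 and -1.28 for Csf1r, as 6.34% of all tested genes were called in opposite directions. Cell division markers, 10 genes led by Mki67, summed to 1578 to 1918 CPM in experiment 1, where 4 of the 10 were lower and 3 higher in KO. In experiment 2 they summed to 2951 and 3085 CPM in WT 3 and WT 4 and to 1856 and 1329 CPM in KO 7 and KO 8, where 6 of the 10 were lower in KO and 0 higher. Of all tested genes, 28.1% were lower and 27% higher in KO of experiment 1, and 15.8% passed in either direction in experiment 2. The part of these markers in the members' differences was not tested. Neutrophil and erythroid markers were near the floor, at no more than 1.52 CPM for 9 genes led by S100a8 and no more than 0.433 CPM for 9 genes led by Epor, of which 1 and 6 were at 0 in all 8 libraries. Fibroblast markers, 9 genes led by Col1a2, summed to 178.1 and 234.5 CPM in KO 5 and KO 6 and to between 2.18 and 12.1 CPM in the other 6 libraries, and 7 of the 7 that could be tested were higher in KO than in WT of experiment 1.

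Macrophages take up iron as transferrin, as free metal ions and inside engulfed red cells, free it from heme, and then either store it in ferritin or return it to plasma through ferroportin. Much of this traffic is controlled after transcription. Iron regulatory proteins bind iron responsive elements, short RNA hairpins that block translation when they lie before the coding sequence and protect the mRNA from decay when they lie behind it, so that iron-poor cells make less ferritin and more transferrin receptor. In macrophages the same genes also answer to heme, to inflammatory signals and to microbes, from which iron is withheld.

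The elements were looked for in the annotated transcripts, because their position tells on which side of the coding sequence an mRNA carries the hairpin. The search took a bulged C, 5 paired bases, the loop CAGTGN and the 5 bases of the other arm on the sense strand, with G-T pairs allowed. It finds no element with a further bulge among those pairs, such as the one known from the 3′ UTR of Slc11a2. Of the 9 genes, 4 held at least one of this form, as did 1.34% of 21877 protein-coding genes. Each is printed 5′ to 3′ from GENCODE M21 (GRCm38), with the loop in capitals.
Fth1, 5′ UTR, chr19:9982732-9982760, plus strand: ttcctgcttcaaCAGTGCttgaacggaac
Ftl1, 5′ UTR, chr7:45459779-45459807, minus strand: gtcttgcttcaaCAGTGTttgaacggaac
Slc40a1, 5′ UTR, chr1:45925465-45925493, minus strand: caacttcagctaCAGTGTtagctaagttt
Tfrc, 3′ UTR, chr16:32631219-32631247, plus strand: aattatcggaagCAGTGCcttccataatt
Tfrc, 3′ UTR, chr16:32631598-32631626, plus strand: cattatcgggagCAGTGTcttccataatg
Tfrc, 3′ UTR, chr16:32631663-32631691, plus strand: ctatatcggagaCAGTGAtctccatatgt
Tfrc, 3′ UTR, chr16:32631710-32631738, plus strand: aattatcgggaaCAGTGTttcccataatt
The storage genes Fth1 and Ftl1 and the exporter gene Slc40a1 each carried 1 element of this form, in the 5′ UTR. The uptake gene Tfrc carried 4 of this form, in the 3′ UTR. Elements of other forms were not counted. A match describes the letters only, and the RNA-seq counts do not measure translation.

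KO differed from WT in all 9 genes in experiment 1, and for 7 of the 9 the effect in experiment 2 was a different one. In experiment 1, KO had lower mRNA of 8 genes (Fth1, Ftl1, Tfrc, Slc11a1, Slc11a2, Hmox1, Spic and Lcn2) and higher mRNA of Slc40a1, past an adjusted p of 0.05 in edgeR's quasi-likelihood test, where 28.1% of all tested genes were lower and 27% were higher. In experiment 2, only Fth1 passed the threshold, and it was higher in KO, where 15.8% of all tested genes passed in either direction. With DESeq2 in place of edgeR, Slc40a1, Tfrc, Spic and Lcn2 passed there as well, where DESeq2 called 23.9% of the 13299 genes to which it gave an adjusted p. The median log2 fold change of the 9 was -1.23 in experiment 1 and 0.20 in experiment 2, beside 0.01 and 0.01 over all tested genes. The difference between the experiments' genotype effects was itself past the threshold for 7 of the 9, against 41.6% of all tested genes, Hmox1 and Spic being the exceptions. The WT and KO libraries did not overlap for 9 of the 9 in experiment 1 and for 7 of the 9 in experiment 2, as they did not for 79.9% and 65.4% of all tested genes. The sign of the log2 fold change was opposite in the 2 experiments for 8 of the 9, and Spic alone had the same sign in both. It was also opposite for 29 of the 43 other iron and heme genes tested, and the share over all tested genes was not counted. For Hmox1 and Slc11a1 the 2 signs were the same when WT 3 was left out.

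**Figure D1:**
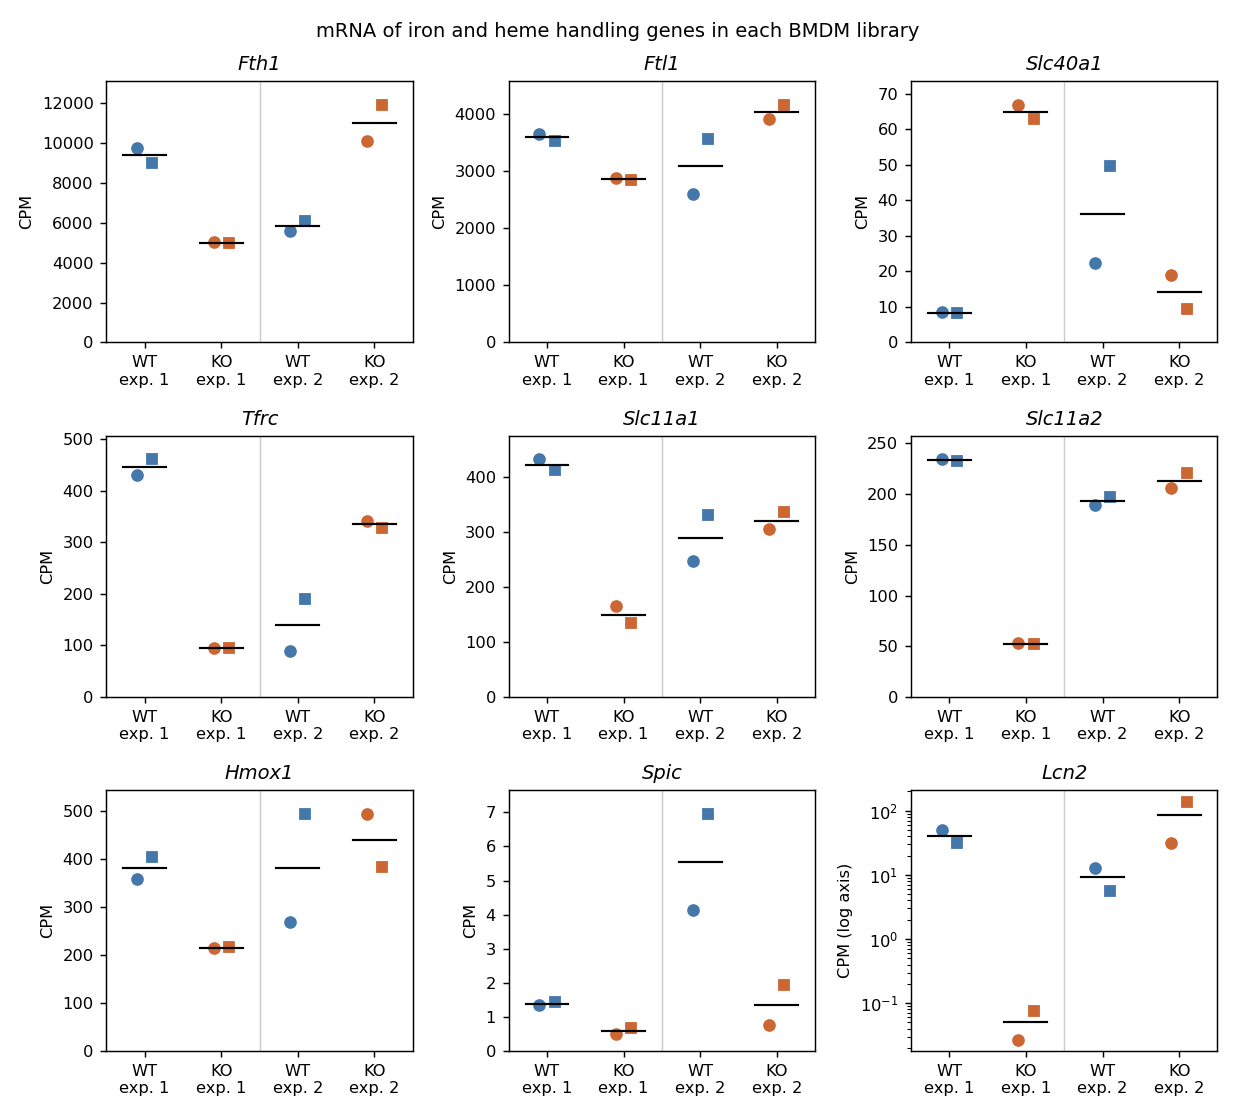
mRNA of the 9 genes in each library, in CPM, by genotype and experiment (blue WT, orange KO; circle and square, the lower and the higher library number; bar, mean of 2 libraries; log axis for Lcn2 only). The WT and KO libraries do not overlap for any of the 9 genes in experiment 1, and in experiment 2 they do for Hmox1 and Slc11a1; 79.9% and 65.4% of all tested genes do not overlap.

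Ferritin stores iron in a shell of heavy and light chains, and Fth1 encodes the heavy chain, which oxidises iron on entry. Fth1 (chr19:9980598-9985098, plus strand) stood at 9747 and 9005 CPM in WT 1 and WT 2, at 5030 and 4965 CPM in KO 5 and KO 6, at 5574 and 6075 CPM in WT 3 and WT 4, and at 10100 and 11900 CPM in KO 7 and KO 8. The KO libraries were the low ones in experiment 1 and the high ones in experiment 2, with no overlap between genotypes in either. The log2 fold change was -0.92 (SE 0.083, adjusted p = 5.38e-05) in experiment 1 and 0.92 (SE 0.19, adjusted p = 0.0357) in experiment 2, and the difference between the 2 effects was 1.83 (adjusted p = 0.000549). Fth1 was the single member past the threshold in both experiments in opposite directions, as 6.34% of all tested genes were, and no member was past it in both in the same direction, as 4.38% of all tested genes were. The call in experiment 2 was lost whichever of its 4 libraries was left out, at adjusted p between 0.075 and 0.151, while the log2 fold change stayed between 0.79 and 1.03. Within an experiment, leaving out a library leaves 1 library of that genotype, which is then assumed to vary like the 2 of the other genotype, for every gene so tested.

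Ftl1 encodes the ferritin light chain, which helps the stored iron form its mineral core. Ftl1 (chr7:45457944-45459884, minus strand) stood at 3653 and 3535 CPM in WT 1 and WT 2, at 2881 and 2841 CPM in KO 5 and KO 6, at 2605 and 3557 CPM in WT 3 and WT 4, and at 3919 and 4160 CPM in KO 7 and KO 8. It was lower in both KO libraries of experiment 1, with a log2 fold change of -0.34 (SE 0.073, adjusted p = 0.0046), and both KO libraries of experiment 2 lay above both WT libraries, with a log2 fold change of 0.39 that did not pass the threshold (SE 0.21, adjusted p = 0.254). WT 3 lay well below the other 3 WT libraries, and the log2 fold change of experiment 2 was 0.18 without WT 3 and 0.63 without WT 4. With 1 fit of all 8 libraries in 4 groups, in which the wider spread of experiment 2 enters the error, the call of Ftl1 in experiment 1 was lost (-0.33, adjusted p = 0.122).

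The balance of the 2 chains shifted with the same split of libraries. The Ftl1 to Fth1 ratio was 0.375 and 0.393 in WT 1 and WT 2, 0.388 and 0.35 in KO 7 and KO 8, 0.467 and 0.586 in WT 3 and WT 4, and 0.573 and 0.572 in KO 5 and KO 6. Both chains together made up 1.31% and 1.26% of all counts in WT 1 and WT 2, 0.821% and 0.823% in KO 5 and KO 6, 0.76% and 0.955% in WT 3 and WT 4, and 1.39% and 1.63% in KO 7 and KO 8. Of the pseudogene rows in the files, Fth-ps2 held 97 counts and Ftl2-ps 27 counts over all libraries, beside 2412645 for Fth1 and 1042029 for Ftl1. In the annotation, 7 genes share a stretch of at least 90% identity over at least 200 bases with Ftl1, and 1 gene does with Fth1. Only 1 of these 8, Ftl2-ps, has a row in the files used here. Reads shared with the other copies could not be followed, among them Ftl1-ps1 at 99.6% identity over 910 bases. Exons of Gm10252 on the opposite strand cover 355 bases of those of Ftl1, and exons of Gm22133, a microRNA gene at 0 counts, cover 109 on the same strand.

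Tfrc encodes transferrin receptor 1, through which cells take in transferrin-bound iron. Tfrc (chr16:32608920-32632794, plus strand) stood at 430.4 and 461 CPM in WT 1 and WT 2, at 94.1 and 95.6 CPM in KO 5 and KO 6, at 89.4 and 191 CPM in WT 3 and WT 4, and at 341 and 328 CPM in KO 7 and KO 8. In experiment 1 the KO libraries were the low pair, 4.7 times below WT on average, and in experiment 2 they were the high pair, without overlap between genotypes in either. KO minus WT was -2.24 on the log2 scale (SE 0.064, adjusted p = 4.22e-07) in experiment 1 and 1.26 (SE 0.37, adjusted p = 0.0844) in experiment 2, which missed the threshold. WT 3 and WT 4 differed by 1.09 on the log2 scale, and without WT 4 the difference of experiment 2 was past the threshold (1.91, adjusted p = 0.00554). In that fit the spread came from KO 7 and KO 8 alone, which differed by 0.055 on the log2 scale. Without WT 3 the difference was 0.81 (adjusted p = 0.0675), and without KO 7 or KO 8 the adjusted p was 0.201 or 0.231. The effects of the 2 experiments differed by 3.49 (SE 0.42, adjusted p = 0.000984).

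The proportion of storage to uptake mRNA varied between libraries. The Fth1 to Tfrc ratio of CPM was 22.7 and 19.6 in WT 1 and WT 2, and it was 53.4 and 51.9 in KO 5 and KO 6. In experiment 2 the ratio was 62.4 and 31.8 in WT 3 and WT 4, and 29.6 and 36.3 in KO 7 and KO 8. The KO libraries had the higher ratio in experiment 1 and overlapped with WT in experiment 2. No test was run on the ratios.

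**Figure D2:**
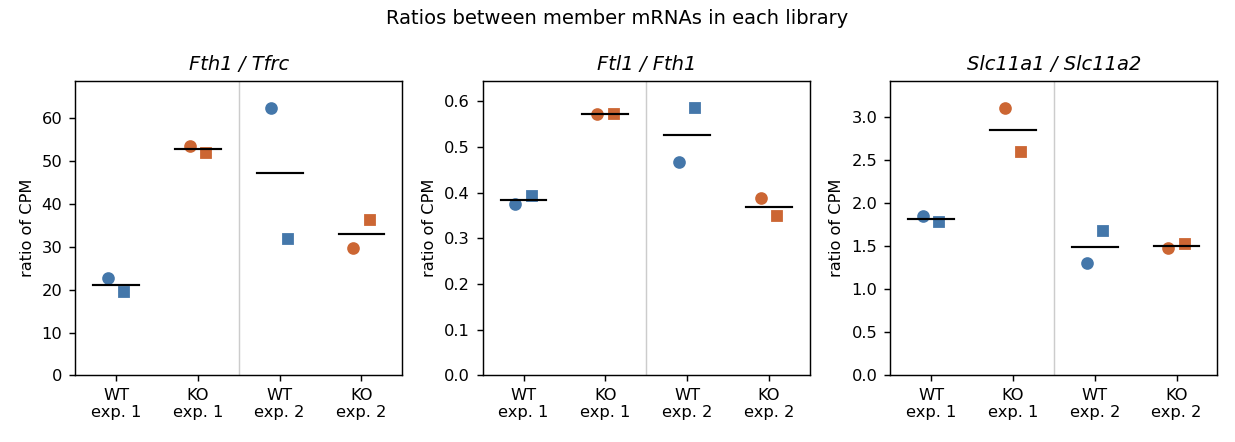
Ratios of CPM between member genes in each library, by genotype and experiment (blue WT, orange KO; bar, mean of 2 libraries; axes start at 0). The Ftl1 to Fth1 ratio lies between 0.35 and 0.393 in WT of experiment 1 and KO of experiment 2, and between 0.467 and 0.586 in the other 4 libraries; the Slc11a1 to Slc11a2 ratio is highest in KO of experiment 1.

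Slc11a2 and Slc11a1 encode divalent metal transporters of one family. Slc11a2 (DMT1) carries iron from endosomes into the cytosol, and Slc11a1 (NRAMP1) moves metal ions across the phagosome membrane of macrophages and thereby limits the growth of engulfed microbes. Slc11a2 (chr15:100387898-100425072, minus strand) stood at 234.3 and 232.6 CPM in WT 1 and WT 2 and at 53.1 and 51.8 CPM in KO 5 and KO 6. In experiment 2 it stood at 189.7 and 197 CPM in WT 3 and WT 4, and at 206 and 220.4 CPM in KO 7 and KO 8. The 2 KO libraries of experiment 1 were thus set apart from the other 6, which lay within 189.7 to 234.3 CPM. On the log2 scale KO minus WT was -2.17 (SE 0.057, adjusted p = 3.13e-07) in experiment 1 and 0.14 (SE 0.12, adjusted p = 0.445) in experiment 2. The difference between the effects was 2.29 (SE 0.11, adjusted p = 7.77e-05), and it was past the threshold in each of 15 alternative fits.

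Slc11a2 lies on the same chromosome as the deleted gene, 19.2 Mb from Mkl1 in GRCm38. In the annotation, 402 bases of its exons are also exons of Gm5475 on the opposite strand. The kit marks strand, but whether the counting used it is not given in the sources used here, so for these bases, as for those that Ftl1 shares with Gm10252, the 2 genes cannot be told apart.

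Slc11a1 (chr1:74375195-74386062, plus strand) stood at 433 and 413 CPM in WT 1 and WT 2, at 165 and 135 CPM in KO 5 and KO 6, at 248 and 332 CPM in WT 3 and WT 4, and at 305 and 336 CPM in KO 7 and KO 8. As for Slc11a2, the low values were those of KO in experiment 1, whereas in experiment 2 WT 4 lay between the 2 KO libraries. This gave a log2 fold change of -1.51 (SE 0.1, adjusted p = 3.47e-05) in experiment 1 and 0.15 (SE 0.18, adjusted p = 0.602) in experiment 2, where its sign turned when WT 3 was left out (-0.05). The Slc11a1 to Slc11a2 ratio was 1.85 and 1.78 in WT 1 and WT 2, 3.11 and 2.6 in KO 5 and KO 6, and between 1.31 and 1.68 in the 4 libraries of experiment 2. The 2 KO libraries of experiment 1 had the highest ratios of the 8.

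Slc40a1 encodes ferroportin, the exporter through which macrophages return iron to plasma, and it was the only one of the 9 with more mRNA in KO of experiment 1. Slc40a1 (chr1:45908068-45926523, minus strand) stood at 8.43 and 8.16 CPM in WT 1 and WT 2 and at 66.9 and 62.8 CPM in KO 5 and KO 6. In experiment 2 it stood at 22.5 and 49.5 CPM in WT 3 and WT 4 and at 19.1 and 9.35 CPM in KO 7 and KO 8. The KO libraries were the high pair in experiment 1, 7.82 times above WT on average, and the low pair in experiment 2, again without overlap. KO minus WT was 2.95 on the log2 scale (SE 0.076, adjusted p = 3.13e-07) in experiment 1 and -1.34 (SE 0.51, adjusted p = 0.141) in experiment 2.

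In experiment 2 the 2 libraries of each genotype differed by 1.14 (WT) and 1.02 (KO) on the log2 scale for Slc40a1, close to the size of the genotype effect itself. That effect was -0.66 without WT 4, -0.92 without KO 8, -1.80 without WT 3 and -1.95 without KO 7 (adjusted p between 0.134 and 0.464). The effects of the 2 experiments differed by -4.31 (SE 0.59, adjusted p = 0.00156). The KO libraries of experiment 1 that were high in Slc40a1 were those with the summed fibroblast markers at 178.1 and 234.5 CPM. Among 6 markers of iron-recycling macrophages led by Cd5l (Vcam1, Treml4, Cd5l, Siglec1, Axl and C1qa), 4 were higher and 1 lower in KO of experiment 1, and 1 was higher and 3 lower in KO of experiment 2, beside 27% higher and 28.1% lower of all tested genes in experiment 1 and 15.8% in either direction in experiment 2. Their summed level was 1413 and 1797 CPM in WT 1 and WT 2, 2712 and 2350 CPM in KO 5 and KO 6, 1775 and 1129 CPM in WT 3 and WT 4, and 2124 and 1794 CPM in KO 7 and KO 8. The part of either cell type in the Slc40a1 result was not tested.

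Hmox1 encodes heme oxygenase 1, which opens the heme ring and sets its iron free. Hmox1 (chr8:75093621-75100589, plus strand) stood at 359 and 405 CPM in WT 1 and WT 2, at 216 and 217 CPM in KO 5 and KO 6, at 269 and 495 CPM in WT 3 and WT 4, and at 495 and 385 CPM in KO 7 and KO 8. The 2 KO libraries of experiment 1 were the lowest of all 8, and in experiment 2 the WT libraries spanned the KO ones. As a log2 fold change, the difference was -0.83 (SE 0.072, adjusted p = 4.06e-05) in experiment 1 and 0.20 (SE 0.32, adjusted p = 0.696) in experiment 2. The difference between them missed the threshold (1.02, adjusted p = 0.0587). It was past it without WT 3 (0.68, adjusted p = 0.0428), without WT 4 (1.53, adjusted p = 0.00281), with DESeq2 (1.03, adjusted p = 0.0103) and without a filter beyond 1 count (1.05, adjusted p = 7.34e-09). WT 3 and WT 4 differed by 0.88 on the log2 scale, and the log2 fold change of experiment 2 was -0.17 without WT 3, 0.71 without WT 4 and 0.01 without KO 7. Mean Hmox1 mRNA in WT was 382 CPM in both experiments.

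Spic encodes an ETS factor that drives the fate of iron-recycling macrophages of the spleen and answers to heme. Spic (chr10:88674772-88685015, minus strand) was the least abundant member per length of exon except in KO 5 and KO 6, where Lcn2 lay lower. It held 55 and 49 counts in WT 1 and WT 2, 19 and 27 in KO 5 and KO 6, 151 and 242 in WT 3 and WT 4, and 32 and 81 in KO 7 and KO 8. These correspond to 1.35 and 1.44 CPM, 0.514 and 0.675 CPM, 4.14 and 6.96 CPM, and 0.781 and 1.94 CPM. KO lay below WT within each experiment, but KO 8 lay above the WT libraries of experiment 1. The log2 fold change was -1.23 (SE 0.28, adjusted p = 0.00606) in experiment 1 and -2.02 (SE 0.51, adjusted p = 0.059) in experiment 2, and the difference between the 2 was -0.80 (SE 0.65, adjusted p = 0.353).

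Spic was also the only member past the threshold when one genotype effect was fitted over both experiments, at -1.64 (SE 0.37, adjusted p = 0.0442), where 7.12% of all tested genes passed. That call was lost whichever of the 8 libraries was left out, at adjusted p between 0.0591 and 0.126, and the call in experiment 1 was lost in the fit with 4 groups (adjusted p = 0.0798). Spic transcripts in the annotation share a stretch of at least 90% identity over at least 200 bases with transcripts of 59 other genes, 26 of which have rows in the files, so its counts are uncertain.

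Lcn2 encodes lipocalin 2, a secreted protein that binds bacterial siderophores and keeps their iron from microbes. Lcn2 (chr2:32384633-32388252, minus strand) showed the widest range of the 9, with 2033 and 1081 counts in WT 1 and WT 2, 1 and 3 counts in KO 5 and KO 6, 469 and 198 counts in WT 3 and WT 4, and 1287 and 5744 counts in KO 7 and KO 8. These correspond to 50 and 31.7 CPM, 0.0271 and 0.075 CPM, 12.9 and 5.69 CPM, and 31.4 and 137.8 CPM. KO was at the floor of detection in experiment 1 and above both WT libraries in experiment 2. Summed over 2 libraries each, experiment 1 held 3114 counts in WT and 4 in KO, a ratio of 802 after scaling to the TMM library sizes, with an exact 95% interval of 313 to 2944 that covers counting error only.

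The fitted log2 fold change of Lcn2 in experiment 1 was -9.54 (SE 0.53, adjusted p = 0.000268), a value that depends on the prior count. Its call was lost without KO 5 (-9.04, adjusted p = 0.0607) or without KO 6 (-10.41, adjusted p = 0.0556). In experiment 2 the log2 fold change was 3.19 (SE 0.83, adjusted p = 0.0656), and KO 7 and KO 8 differed from each other by 2.13 on the log2 scale. Without KO 7 the difference was past the threshold (3.89, adjusted p = 0.0443), and without KO 8 it was 1.76 (adjusted p = 0.162), the spread coming from WT 3 and WT 4 alone in both fits. The effects of the 2 experiments differed by 12.72 (SE 1.44, adjusted p = 0.000813). Lcn2 is abundant in neutrophil granules, and the 9 neutrophil markers summed to 1.52 CPM in WT 1 and 1.17 CPM in WT 2, against 0.352 and 0.4 CPM in KO 5 and KO 6. In experiment 2 they summed to 0.356 and 0.719 CPM in WT 3 and WT 4 and to 1.15 and 0.767 CPM in KO 7 and KO 8. S100a8, which made up most of the sum in WT 1 and WT 2, was lower in KO of experiment 1 (-2.24, adjusted p = 0.000907) and stood at 1.52 in experiment 2 (adjusted p = 0.17), while S100a9 and Ly6g were at no more than 0.0492 CPM in any library. The part of neutrophils in the Lcn2 result was not tested.

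**Figure D3:**
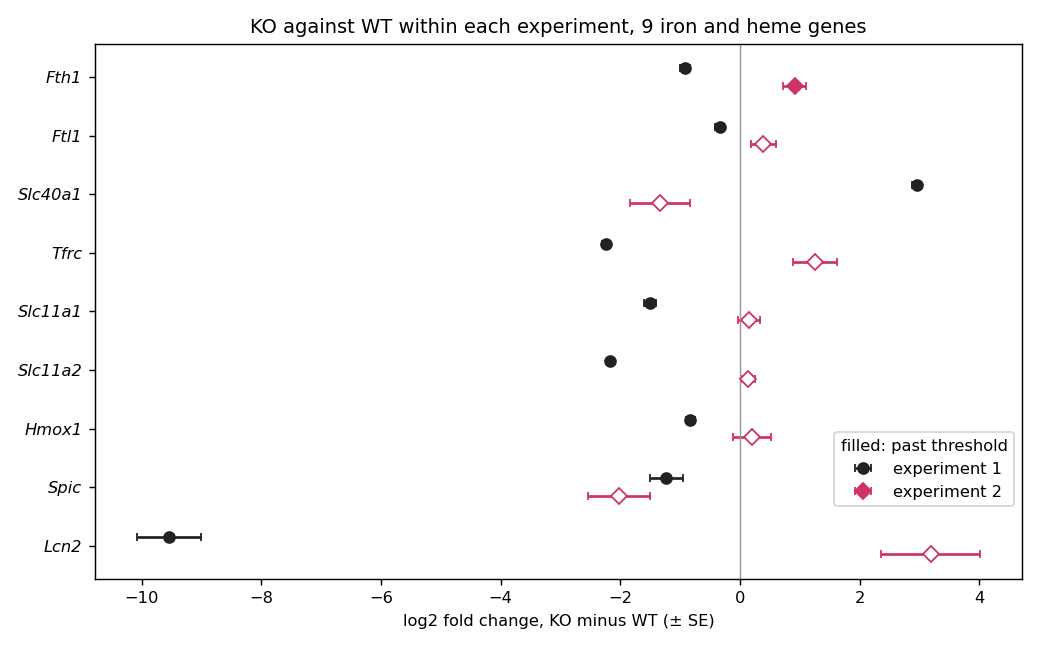
Log2 fold change of KO against WT with its standard error for the 9 genes, experiment 1 (black circles) and experiment 2 (red diamonds), edgeR, 2 libraries a genotype. Filled symbols passed an adjusted p of 0.05: all 9 in experiment 1 and Fth1 in experiment 2; values run from -9.54 (Lcn2) to 2.95 (Slc40a1) in experiment 1 and from -2.02 (Spic) to 3.19 (Lcn2) in experiment 2.

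Across the 4 groups, no member separated the genotypes over all libraries. In 0 of the 9 did all 4 KO libraries lie beyond all 4 WT libraries, which was the case for 12.7% of all tested genes, and with one effect over both experiments edgeR called only Spic. The 8 others had values between -1.72 (Lcn2) and 0.81 (Slc40a1) there. Fth1, Ftl1, Tfrc, Slc11a1, Slc11a2 and Lcn2 had their highest 2 group means in WT of experiment 1 and KO of experiment 2, and Slc40a1 had its lowest 2 there. This order was not particular to the members. The macrophage markers Adgre1 and Itgam also had their highest 2 group means there, and Csf1r its lowest 2. How many of all tested genes do so was not counted.

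The same genotype also differed between the experiments, with no test here because experiment and batch cannot be told apart. Mean Tfrc mRNA in WT was 3.18 times higher in experiment 1 than in experiment 2, that of Fth1 1.61 times and that of Lcn2 4.41 times, whereas Slc40a1 and Spic were 4.34 and 3.98 times higher in experiment 2. The WT mean of experiment 1 was 1.46 times that of experiment 2 for Slc11a1, 1.21 for Slc11a2, 1.17 for Ftl1 and 1 for Hmox1. In KO the mean of experiment 2 was 3.53 times that of experiment 1 for Tfrc, 2.2 times for Fth1, 4.06 times for Slc11a2 and 2.03 times for Hmox1, while that of Slc40a1 was 4.56 times higher in experiment 1. For Ftl1, Slc11a1 and Spic it was 1.41, 2.14 and 2.29 times that of experiment 1. For Lcn2, at 1 and 3 counts in KO 5 and KO 6, it was 1658 times.

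Per kilobase of exon, the 2 ferritin genes stood above the other members in every library, Fth1 at 1431 to 3430 CPM per kb and Ftl1 at 1944 to 3104 CPM per kb. Hmox1 followed at 123.5 to 283 CPM per kb, Slc11a1 at 36.3 to 117 and Tfrc at 14.5 to 74.5. Slc11a2 ranged from 8.16 to 36.9 CPM per kb, Slc40a1 from 0.906 to 7.43 and Spic from 0.134 to 1.81, and Lcn2 crossed most of them with 0.0103 to 52.5. The ranges of Fth1 and Ftl1 overlapped, and so did those of Slc11a1, Tfrc and Slc11a2.

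The wider set of genes around these 9 was taken from a list of 56 genes in 7 roles, of which 43 were tested. In experiment 1, 16 of the 43 were lower and 14 higher in KO, with a median log2 fold change of -0.07, beside 28.1% lower and 27% higher of all tested genes. In experiment 2, 2 were lower and 3 higher, which is 11.6% of the list against 15.8% of all tested genes, with a median of 0.12. The interaction was past the threshold for 22 of the 43, or 51.2% against 41.6% of all tested genes. With one effect over both experiments only Hfe passed, the hemochromatosis protein that tunes hepcidin, at 0.62 (SE 0.14, adjusted p = 0.0429), where 7.12% of all tested genes passed. The call of Hfe was lost when any 1 library but KO 8 was left out (adjusted p between 0.0587 and 0.113). With DESeq2 over both experiments, 4 of the 43 were called, beside 2492 of the 14418 genes tested. Lower and higher calls of the list in experiment 1 were thus close in number.

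Of the 9 tested genes of heme breakdown and heme transport, 3 were lower and 4 higher in KO of experiment 1. These counts, and those of the other roles, stand beside 28.1% lower and 27% higher of all tested genes. In experiment 2, edgeR called 15.8% of all tested genes and gave 34.1% of them an unadjusted p under 0.05. There DESeq2 called 23.9% of the 13299 genes to which it gave an adjusted p. Blvrb, a biliverdin reductase that works downstream of heme oxygenase, was lower in experiment 1 (-0.73, adjusted p = 3.09e-05) and stood at 0.52 in experiment 2 (adjusted p = 0.108). Mfsd7b (Flvcr1), long described as a heme exporter, was higher in KO in both experiments, at 0.23 (adjusted p = 0.00892) and 1.08 (adjusted p = 0.0146), and no other gene of the list was called in both in one direction, as 4.38% of all tested genes were. Its call was lost without WT 2 (adjusted p = 0.0602) or with 4 groups in 1 fit (adjusted p = 0.102) in experiment 1, and without KO 7 or KO 8 (adjusted p = 0.0572 and 0.0638) in experiment 2. Mfsd7c (Flvcr2) had the largest reversal of the list and is named after its values were seen: 158 and 261 counts in WT 1 and WT 2, 7 and 5 in KO 5 and KO 6, 6 and 11 in WT 3 and WT 4, and 195 and 479 in KO 7 and KO 8. Its log2 fold change was -5.18 (adjusted p = 0.000376) in experiment 1 and 5.07 (adjusted p = 0.0149) in experiment 2, where the call was lost without WT 3 (4.67, adjusted p = 0.0694).

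Of 8 tested genes of heme synthesis, 2 were lower and 3 higher in KO of experiment 1. In experiment 2, 0 passed by edgeR and 0 by DESeq2, and 1 had an unadjusted p under 0.05, which 34.1% of all tested genes had. Alas1, the rate-limiting enzyme of heme synthesis outside red cells, was lower in KO of experiment 1 (-0.93, adjusted p = 0.000223), and Uros, an enzyme of the middle of the pathway, had a log2 fold change of -0.47 in experiment 2 (adjusted p = 0.105). Of 9 tested mitochondrial iron and iron-sulphur cluster genes, 5 were lower and 1 higher in experiment 1, among them the scaffold gene Iscu (-0.36, adjusted p = 0.00267). In experiment 2, 0 of the 9 passed by edgeR and 1 by DESeq2, with 3 at an unadjusted p under 0.05 (34.1% of all tested genes), and the mitochondrial iron importer Slc25a28 stood at -0.59 (adjusted p = 0.0677).

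Of 5 tested genes of iron uptake and reduction, 2 were lower and 2 higher in KO of experiment 1, and of 3 of export and the hepcidin axis, 1 was lower and 2 were higher. In experiment 2, 0 of these 8 passed by edgeR. An unadjusted p under 0.05 was reached by 3 genes of uptake and 2 of export, as by 34.1% of all tested genes. DESeq2 called 2 uptake genes there, beside 23.9% of the 13299 genes to which it gave an adjusted p. Trf, the iron carrier transferrin, was higher in KO of experiment 1 at 2.29 (adjusted p = 1.14e-05), with 2.9 and 2.32 CPM in WT 1 and WT 2 and 13.4 and 12.4 CPM in KO 5 and KO 6, and stood at -1.39 in experiment 2 (adjusted p = 0.0618). Cp, the ferroxidase ceruloplasmin that works with ferroportin, was lower in KO of experiment 1 at -3.16 (adjusted p = 1.21e-06), with 103 and 119.6 CPM in WT 1 and WT 2 and 11.8 and 13.3 CPM in KO 5 and KO 6. In experiment 2 it stood at 1.47 (adjusted p = 0.146), with 43.6 and 14.7 CPM in WT 3 and WT 4 and 59.7 and 102 CPM in KO 7 and KO 8. Slc39a8, a divalent metal importer, was lower in experiment 1 (-1.13, adjusted p = 0.000348) and stood at 1.12 in experiment 2 (adjusted p = 0.0544). The interaction was past the threshold for Trf (-3.69), Cp (4.62) and Slc39a8 (2.24).

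Of 3 tested genes of iron storage and ferritin turnover, 1 was lower and 1 higher in KO of experiment 1, and 1 was lower in experiment 2. Of 6 tested genes of iron sensing and transcription, 2 were lower and 1 higher in experiment 1, and 1 was lower and 1 higher in experiment 2. Over the whole list 3 of the 43, namely Mfsd7c, Ncoa4 and Bach1, were called in opposite directions in the 2 experiments, beside 6.34% of all tested genes. Ncoa4, the receptor that hands ferritin to autophagy, was higher in KO of experiment 1 (0.97, adjusted p = 1.13e-05) and lower in KO of experiment 2 (-1.05, adjusted p = 0.0123), the opposite of Fth1 in each. Its level was 69.2 and 67.3 CPM in WT 1 and WT 2, 129.3 and 141 CPM in KO 5 and KO 6, 119 and 141 CPM in WT 3 and WT 4, and 63.3 and 61.9 CPM in KO 7 and KO 8. Bach1, a heme-sensing repressor of Hmox1 and of the ferritin genes, was lower in experiment 1 (-0.71, adjusted p = 6.09e-05) and higher in experiment 2 (1.22, adjusted p = 0.0202). Nfe2l2, the activator NRF2 that competes with BACH1 at such genes, stood at -0.05 in experiment 1 (adjusted p = 0.633) and was lower in KO of experiment 2 (-1.23, adjusted p = 0.0108). Without KO 8 the calls of experiment 2 were lost for Ncoa4, Bach1 and Nfe2l2 (adjusted p = 0.0738, 0.0862 and 0.067), and that of Ncoa4 also without KO 7 (adjusted p = 0.0533).

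**Figure D4:**
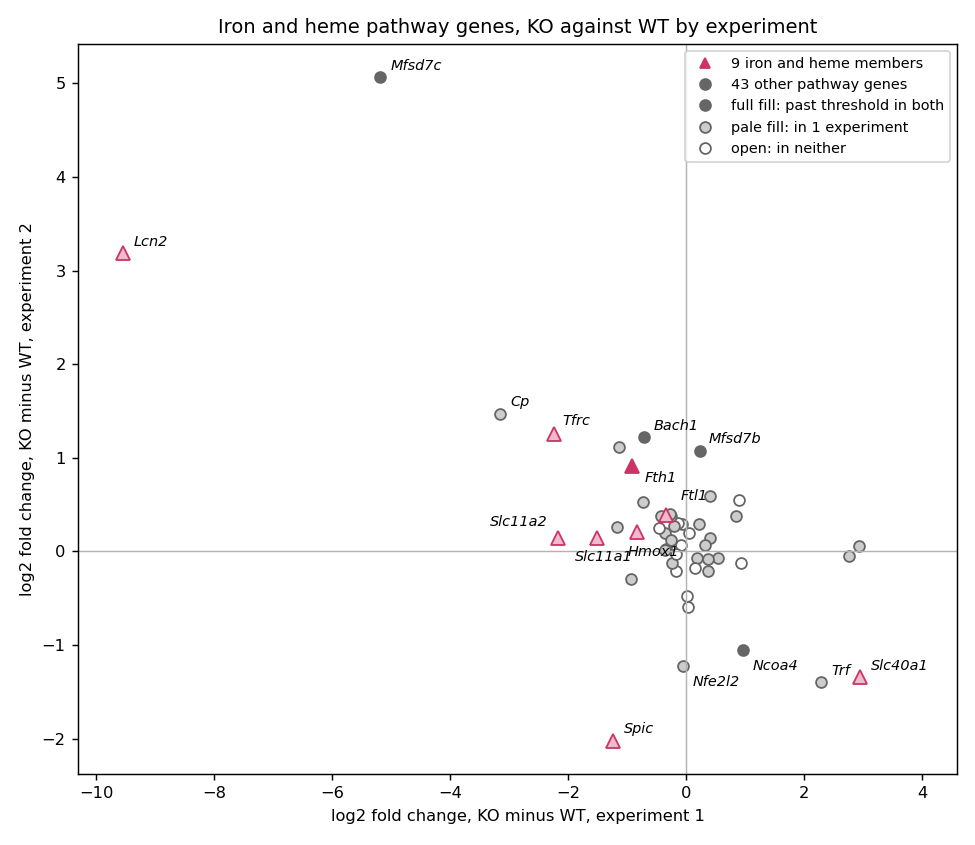
Log2 fold change of KO against WT in experiment 1 (horizontal) and in experiment 2 (vertical) for the 9 members (red triangles) and the 43 other tested pathway genes (grey circles), edgeR. Full fill marks genes past an adjusted p of 0.05 in both experiments: Fth1, Mfsd7c, Bach1 and Ncoa4 on opposite sides of 0 and Mfsd7b on the same side; the 2 experiments share no library.

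The genes whose log2 CPM followed each member most closely over the 8 libraries, among 9071 tested genes (9072 for Spic and Lcn2) whose mean log2 CPM was 3 or more, are given as a description. Since the 8 points share genotype, experiment and batch, many genes reach a high correlation: Pearson's r was over 0.9 for 31 genes with Hmox1, 54 with Ftl1, 191 with Slc40a1, 322 with Spic, 397 with Tfrc, 521 with Fth1, 536 with Slc11a1, 734 with Lcn2 and 780 with Slc11a2. Ordered by the top gene of each member, ties included, the closest were Cd36 to Tfrc (0.997) and Tmco4 to Slc11a2 (0.996). Then came Vdac1 to Slc11a1 (0.991), Slc39a4 and Mtf1 to Lcn2 (0.991 each), Stam and Reep3 to Fth1 (0.989 each), Dock10 to Spic (0.988) and Tmem184c to Slc40a1 (0.986). Ftl1 was closest to Retsat (0.97) and then to Slc48a1 (0.962), the heme transporter HRG1 of the pathway list, and Hmox1 to Ergic1 (0.962).

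Promoter windows from RefSeq (GRCm38.p6), reaching from shortly before to just after the transcription start, covered 6 members with 8 promoters, with none for Hmox1, Slc40a1 and Slc11a2. They were searched on both strands for 5 motifs. The CArG box of serum response factor, TGACNNNGC of NRF2 and BACH1 sites, and the E-box CACGTG were in 0 of the 8 windows, against 1.63%, 12.4% and 7.15% of 32851 mouse promoters. The PU-box letters GAGGAAG were in 1 window (Lcn2) and the kappaB motif in 1 (Ftl1), against 13.6% and 4.51%. A missing match says only that these letters were not in the window.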

How the data were processed

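RNA-seq of BMDMs used a kit for polyadenylated RNA (TruSeq Stranded mRNA) in 8 libraries, 4 WT and 4 KO. Each sample's genotype, number and experiment came from its labels. The authors deposited raw counts per gene, whole numbers, and normalized counts, a signal in which each library's counts are scaled by a factor of its own experiment. The submitters' processing notes name STAR 2.7.0f, Subread 1.6.4 with featureCounts, DESeq2 1.22.1 and GRCm38; the annotation release and the use of strand in counting are not given in the sources used here. Only the counts were tested. The normalized counts served to check the unit.

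KO was compared with WT within each experiment in edgeR 4.0.16 under R 4.3.3 (TMM scaling, filterByExpr by genotype over all 8 libraries, robust quasi-likelihood F test, Benjamini-Hochberg adjustment over 14418 genes, threshold 0.05). The interaction used experiment, genotype and their product, and the effect over both experiments used experiment plus genotype. Standard errors were obtained as the absolute log2 fold change over the root of F. CPM used TMM-scaled library sizes, and log2 CPM a prior count of 2. With 2 libraries a genotype an exact permutation test cannot go below 0.333, so single experiments were tested in the fit across all genes alone. DESeq2 1.42.0, limma-voom (limma 3.58.1), other scalings, other filters, left-out libraries, added pseudogene counts, a fit with 4 groups and a threshold of 0.01 were tried as alternatives. Scripts were tested on simulated data.

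The members and the lists were chosen with earlier results of these data known. Named were all 9 members, from each pathway role the gene with the lowest p in either experiment, every pathway gene called in one direction in both experiments, the genes most like each member and the leading gene of each marker list. Of the marker lists 1 gene had no row, and 3 pathway genes were found under older symbols. Positions, exon lengths and hairpins came from GENCODE M21, in which Mkl1 is listed as Mrtfa, and near-identical copies from BLAST 2.17.0. Intervals and floors (3 counts) cover counting error only.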

Additional observations from a re-analysis of the deposited data

Results flagged for a closer look

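The genotype effect differed between the 2 experiments, by the interaction test of edgeR, for 7 of the 9 genes, against 41.6% of all tested genes. The log2 fold change of experiment 2 minus that of experiment 1 was 12.72 for Lcn2, 3.49 for Tfrc, 2.29 for Slc11a2, 1.83 for Fth1, 1.64 for Slc11a1 and 0.72 for Ftl1, and it was -4.31 for Slc40a1. The difference of Ftl1 lost its call without WT 1, WT 2, KO 5, KO 6 or KO 8 (adjusted p between 0.0661 and 0.101), and the other 6 kept theirs in every alternative that could test them. Ftl1 in WT 3 lay apart from the other 3 WT libraries, with a gap of 0.887 of the range of the group, past a limit that chance alone passes in about 1 group in 20. The limit was applied to each genotype of each of the 9 members, and this was the only group past it. The 4 WT libraries come from both experiments.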

How the results depend on the processing

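In experiment 1 between 7 and 9 members were called in every alternative. In experiment 2, where the reported count was 1, it was 5 with DESeq2 and with 4 groups in 1 fit, 2 with limma-voom, with library totals and without a filter beyond 1 count, 0 at a threshold of 0.01, and 0 to 1 when 1 library was left out (0 without WT 3 or KO 8). Over both experiments (1 reported) it was 0 with upper-quartile scaling, with library totals, at 0.01 and without any 1 library, and 4 as the mean effect of 4 groups. Pathway calls in experiment 1 (30) were 18 with 4 groups. Those in experiment 2 (5) were 9 with DESeq2, 8 without a filter, 17 with 4 groups, 0 at 0.01 and 1 (without KO 8) to 8 (without WT 4) with 1 library left out. Those over both (1) were 4 with DESeq2, 2 without a filter, 10 with 4 groups, 0 at 0.01 and 0 to 2 with 1 library left out. The Mkl1 difference of -0.784 had an exact permutation p of 0.0556, the smallest that 36 arrangements allow, with labels exchanged within experiments only, in place of 0.0286. Signs turned for log2 values near 0 in experiment 1: Nfe2l2 with upper-quartile scaling (0.053), library totals (0.044) or 1 library left out (-0.123 to 0.036), Uros without a filter (-0.027) or 1 library left out (-0.075 to 0.11), and Slc25a28 without a filter (-0.007) or 1 library left out (-0.003 to 0.064). In experiment 2 they turned with 1 library left out for Hmox1 (-0.174 to 0.709), Slc11a1 (-0.051 to 0.371), Iscu (-0.037 to 0.075) and Alas1 (-0.661 to 0.183). Of the other single-gene values, 53 lost and 11 gained a call with 1 library left out, and 10 lost and 35 gained one under other settings. The cause of these changes was not tested.

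Over all tested genes, upper-quartile scaling and library totals moved the median log2 fold change of experiment 1 to 0.113 and 0.105, and the split of calls from 3892 higher and 4056 lower to 4776 and 3207, and 4602 and 3199; over both experiments it went from 536 and 491 to 754 and 367, and 721 and 333. Calls in experiment 2 (2279) were 4899 with 4 groups, 234 at 0.01 and 232 to 1388 with 1 library left out. The interaction calls (5996) were 3247 at 0.01 and 3935 without WT 2, and those over both (1027) were 2492 with DESeq2, 4811 with 4 groups, 208 at 0.01 and 243 to 1100 with 1 library left out. No paired analysis was possible because the genotypes share no replicate number. The 1 and 3 counts of Lcn2 in KO of experiment 1 limit its fold change, and it could not be tested there with 10 counts required in every library.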
